A study of Mus musculus with 4 samples.

Results

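This report follows 9 transcription factors that T and NK lineages are known by, Foxp3, Ikzf2, Gata3, Tcf7, Lef1, Tox, Tbx21, Eomes and Bcl6, through single-cell transcriptomes of mouse lung tumors. They were taken by symbol from the 31055 features of the deposited count matrix, and all 9 were found, each as 1 feature. The matrix pools 4 female mice that bore lung tumors with inactivated Lkb1 (Stk11), the gene of a tumor-suppressor kinase. The 2 Non-Restored mice carried Lkb1XTR/XTR and Rosa26LSL-tdTomato, and the 2 Restored mice carried the same Lkb1 alleles with Rosa26LSL-tdTomato/FLPo-ERT2, so that tamoxifen activates the FLPo recombinase that restores Lkb1. All 4 had tumors initiated by Lenti-Cre into the airways and grown for 16 weeks, and all 4 received tamoxifen in doses of 4 mg over the last 2 weeks. Every mouse inherited the XTR allele in all its cells, immune cells included, and no lung with wild-type Lkb1 or without tumors was among the samples. For restored tumors the study reports higher Lkb1 in all cell compartments, which it ascribes to loss of the XTR gene trap there. The pooled T and NK cells thus come from mice with and without this change. The mice were of mixed C57BL/6J and 129 background, and the labels give no age. Viable cells of microdissected tumors were sorted without selecting a cell type and profiled with 10x 3′ chemistry, so the T and NK cells are those that came along with the tumor tissue.

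The matrix held 20351 cells and 58624795 unique molecular identifiers (UMIs, each standing for 1 captured transcript), at medians of 1960 UMIs and 857 detected genes in a cell. Its cells carry a column number and no barcode, and no file used here assigns a cell to a mouse. Restored and Non-Restored mice were therefore not compared, barcodes shared between libraries could not be counted, and depth per mouse is not known. The pooled matrix is 1 sample without replicates: no p-value is given, and all intervals are exact 95% intervals that cover counting error only. A difference between cell subsets can also carry unequal contributions of the 4 mice, which cannot be told apart here.

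T and NK lineages are built and kept by a small set of DNA-binding proteins, most of which are nuclear regulators of only moderate transcript abundance. FOXP3 specifies regulatory T cells (Treg cells), which restrain immune responses in tumors, and Helios, encoded by Ikzf2, is carried by many of them. GATA3 drives type 2 helper and innate lymphoid cells, T-bet (Tbx21) and EOMES drive cytotoxic and type 1 programs, TCF-1 (Tcf7) and LEF1 maintain naive and stem-like T cells, TOX accompanies chronic stimulation, and BCL6 directs follicular helper T cells and germinal centre B cells.

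The members' genes lie on 8 chromosomes of the mm10 genome. Foxp3 (ENSMUSG00000039521) spans chrX:7573644-7595245 on the plus strand, Ikzf2 (ENSMUSG00000025997) chr1:69531214-69687245 on the minus strand, and Gata3 (ENSMUSG00000015619) chr2:9857078-9890034 on the minus strand. Tcf7 (ENSMUSG00000000782) spans chr11:52252371-52283014 on the minus strand, and its paralog Lef1 (ENSMUSG00000027985) chr3:131110471-131224356 on the plus strand. Tbx21 (ENSMUSG00000001444) lies at chr11:97098071-97115331 on the minus strand, and its paralog Eomes (ENSMUSG00000032446) at chr9:118478212-118486132 on the plus strand. Tox (ENSMUSG00000041272) spans chr4:6686353-6991557 and Bcl6 (ENSMUSG00000022508) chr16:23965052-23988852, both on the minus strand. The 3′ end, which this chemistry reads, overlaps another annotated gene for 4 members, namely Ccdc22 for Foxp3, Gm29114 for Ikzf2 and Gm33460 for Eomes on the opposite strand, and Gm26551 for Tcf7 on the same strand. The counts of Tcf7 and Gm26551 are therefore uncertain where reads fall in both.

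Promoter windows were read for 7 of the 9 members from RefSeq (GRCm38.p6), each covering 250 bases before to 50 bases after an annotated transcription start. They are shown for the paralog pairs Tcf7 and Lef1 and Tbx21 and Eomes, whose levels are compared with each other below, and for Foxp3 and Bcl6, which were highest in Treg-like cells and in neutrophils. Foxp3, Tcf7 and Bcl6 have 2 annotated starts and Lef1 has 4, and the start shown for each was chosen after its motif matches were seen, so the matches describe these windows only. Capitals mark matches, on either strand, to the letters CTTTGA of TCF/LEF factors, AGGTGTGA of T-box factors, AGATAA of GATA factors, TGTTTAC of forkhead factors, TGGGAA of the Ikaros family and TTCCNNGAA of BCL6. The windows lie at chrX:7580233-7580532 (plus strand) for Foxp3, chr11:52282546-52282845 (minus) for Tcf7, chr3:131156044-131156343 (plus) for Lef1, chr11:97115282-97115581 (minus) for Tbx21, chr9:118477939-118478238 (plus) for Eomes and chr16:23981234-23981533 (minus) for Bcl6.
Foxp3: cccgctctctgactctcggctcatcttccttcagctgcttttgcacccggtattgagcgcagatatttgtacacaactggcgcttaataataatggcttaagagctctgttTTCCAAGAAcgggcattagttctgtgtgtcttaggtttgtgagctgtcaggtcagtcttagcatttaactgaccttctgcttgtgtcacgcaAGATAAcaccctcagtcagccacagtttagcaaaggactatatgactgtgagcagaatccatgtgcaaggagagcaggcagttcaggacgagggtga
Tcf7: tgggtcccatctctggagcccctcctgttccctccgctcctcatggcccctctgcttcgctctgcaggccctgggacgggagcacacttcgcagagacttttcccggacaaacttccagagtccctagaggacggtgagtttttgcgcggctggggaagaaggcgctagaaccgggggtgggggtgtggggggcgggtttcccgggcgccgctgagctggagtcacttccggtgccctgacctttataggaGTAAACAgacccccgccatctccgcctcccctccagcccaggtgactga
Lef1: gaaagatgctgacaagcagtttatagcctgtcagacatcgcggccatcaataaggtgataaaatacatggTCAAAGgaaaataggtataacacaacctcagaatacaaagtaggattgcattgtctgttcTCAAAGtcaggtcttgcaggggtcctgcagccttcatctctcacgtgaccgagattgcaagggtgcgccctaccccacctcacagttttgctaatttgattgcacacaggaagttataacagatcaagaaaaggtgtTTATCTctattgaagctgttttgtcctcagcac
Tbx21: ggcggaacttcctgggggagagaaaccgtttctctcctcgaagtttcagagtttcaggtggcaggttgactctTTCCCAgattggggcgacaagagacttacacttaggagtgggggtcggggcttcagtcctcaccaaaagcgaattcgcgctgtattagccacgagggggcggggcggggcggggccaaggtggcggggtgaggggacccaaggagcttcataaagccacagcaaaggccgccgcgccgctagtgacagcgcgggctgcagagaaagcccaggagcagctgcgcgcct
Eomes: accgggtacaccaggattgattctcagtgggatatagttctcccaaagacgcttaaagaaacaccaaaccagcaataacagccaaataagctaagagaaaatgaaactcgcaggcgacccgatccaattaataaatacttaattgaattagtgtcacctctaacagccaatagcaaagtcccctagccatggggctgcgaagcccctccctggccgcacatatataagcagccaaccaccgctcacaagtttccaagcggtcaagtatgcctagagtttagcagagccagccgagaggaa
Bcl6: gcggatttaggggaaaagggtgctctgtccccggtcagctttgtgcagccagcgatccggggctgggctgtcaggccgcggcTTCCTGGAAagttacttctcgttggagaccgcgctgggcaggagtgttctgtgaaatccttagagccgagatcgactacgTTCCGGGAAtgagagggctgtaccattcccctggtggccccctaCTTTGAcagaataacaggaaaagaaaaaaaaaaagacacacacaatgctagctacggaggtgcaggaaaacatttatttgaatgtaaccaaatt

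Within these windows, the Foxp3 start carried a BCL6 match 139 bases and a GATA match 47 bases before the start. The Lef1 start carried 2 matches of its own TCF/LEF family, 180 and 120 bases before the start, and a GATA match after it, while the other 3 Lef1 starts held an Ikaros match each and no TCF/LEF match. The windows of 2 of these other starts overlap and share the same Ikaros site. Bcl6 carried 2 matches of its own motif, 168 and 88 bases before the start, each read on both strands because the motif is nearly its own reverse complement, and a TCF/LEF match 44 bases before it. The Tcf7 window held a forkhead match at the start, the Tbx21 window an Ikaros match 177 bases before it, and the Eomes window none. Of all 32851 promoter windows, 16.0% held the TCF/LEF letters, 1.275% the T-box, 11.18% the GATA, 3.65% the forkhead, 25.56% the Ikaros and 4.813% the BCL6 letters. A match describes letters and is not a binding site, and none of these data measure binding.

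Clustering without the 9 members among its genes placed 6005 of 19488 filtered cells in T or NK-like clusters, and marker gates that never use a member divided them. The lineage gates gave 137 naive-like CD4 cells, 201 activated conventional CD4 cells, 177 Treg-like CD4 cells, 390 naive-like CD8 cells, 191 effector CD8 cells, 352 gamma-delta-like T cells and 540 NK-like cells. A Treg-like cell carried at least 2 of 7 markers (Il2ra, Ctla4, Tnfrsf4, Tnfrsf18, Izumo1r, Tnfrsf9, Ikzf4), and naive-like cells carried more of 5 naive markers, among them Ccr7, Dapl1, Igfbp4 and S1pr1, than of activation or effector genes. A further 48 cells had no CD3 chain UMI and at least 2 type 2 genes such as Il1rl1, Il13 and Areg, but 30 of them held a T cell receptor alpha or beta constant UMI, so they are called by their gate. Such a UMI was also found in 161 of the 540 NK-like cells, and a Trac UMI in 42 of the 352 gamma-delta-like cells. Cd4 was seen in only 744 T or NK-like cells, while 2643 CD3-positive cells had no Cd4, Cd8 or gamma-delta UMI. The same naive, activated and Treg gates were applied to the latter and gave 663, 998 and 469 cells, which are given as a parallel set. Orders of levels and steps between neighbours are taken over the 8 lineage-gated subsets, without the parallel set. Median depth ran from 1147.5 UMIs in NK-like cells to 2145 in Treg-like CD4 cells. Levels are given as CPM, the UMIs of a gene per 1000000 UMIs of the subset, and UMIs of 1 cell are not independent, so the true spread is wider than the intervals.

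**Figure D1:**
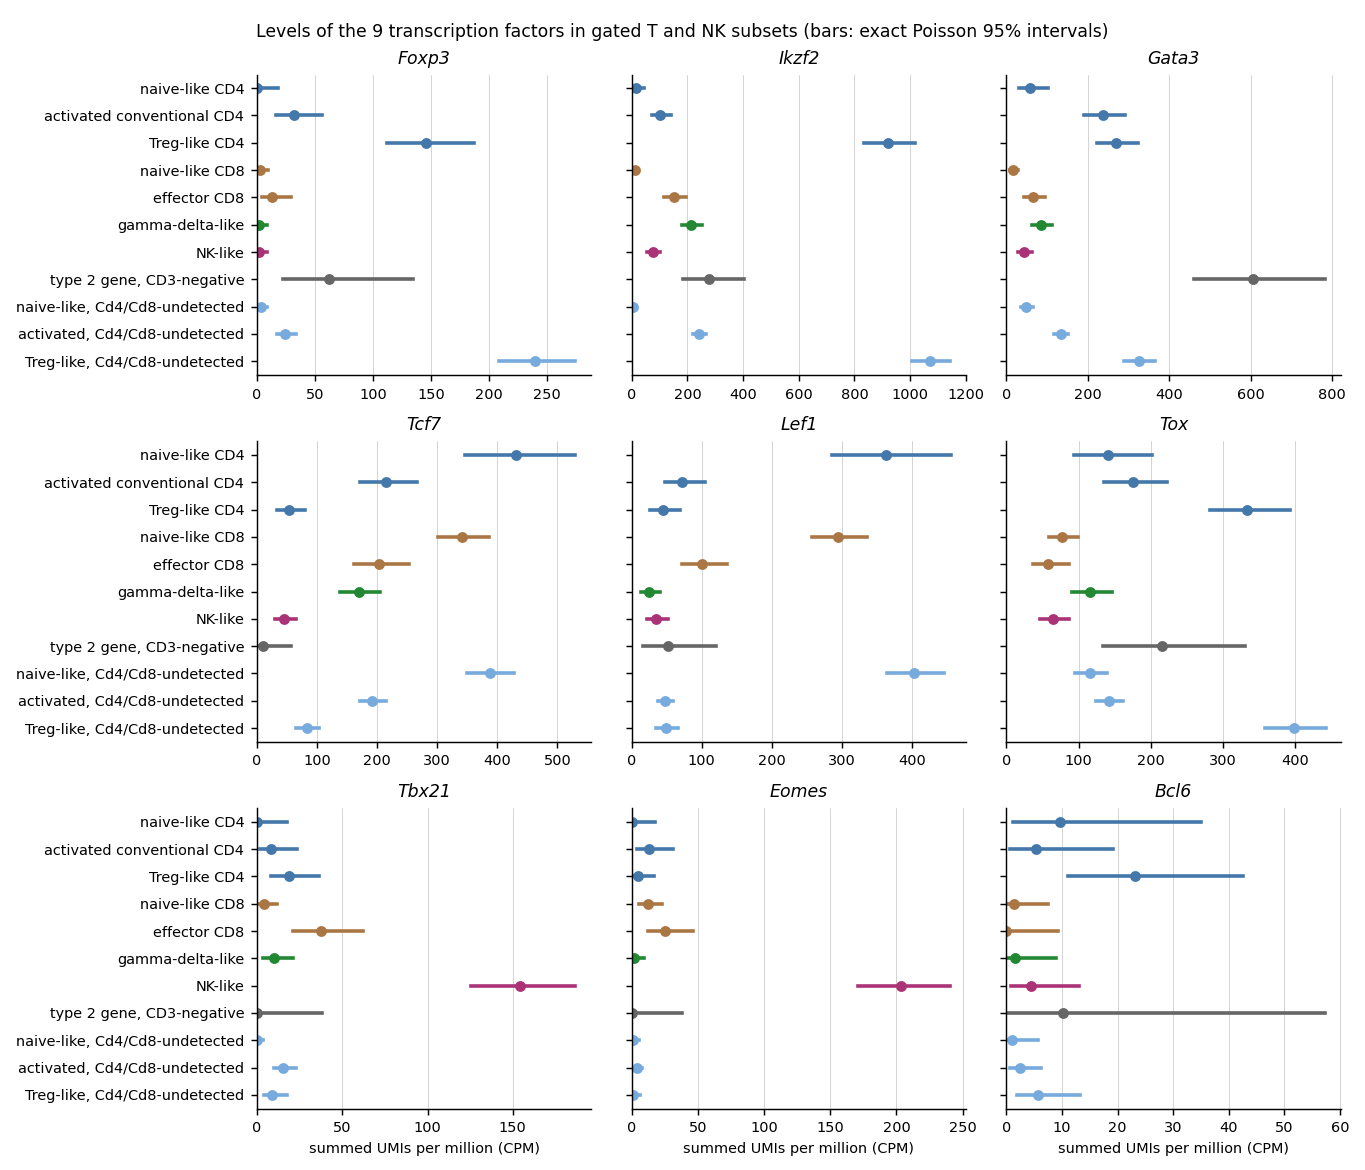
Each panel plots 1 factor's level (CPM, horizontal axis, linear from 0, scaled per gene) in the 8 lineage-gated and 3 Cd4/Cd8-undetected subsets, with points at the summed value and bars for exact Poisson 95% intervals. Foxp3 and Ikzf2 stand highest in the Treg-like subsets, Tcf7 and Lef1 in the naive-like subsets, Tbx21 and Eomes in NK-like cells, and Gata3 in the CD3-negative cells with type 2 genes.

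Foxp3 and Ikzf2 were concentrated in the Treg-like gate, which used neither. Foxp3 stood at 146 CPM in Treg-like CD4 cells (112 to 187, 63 UMIs in 40 of 177 cells), 31.8 CPM in activated conventional CD4 cells (16.5 to 55.6, 12 UMIs) and had no UMI in naive-like CD4 cells, which allows up to 14.5 CPM. It was at 12.5 CPM in effector CD8 cells on 5 UMIs and at 1 or 2 UMIs in naive-like CD8, gamma-delta-like and NK-like cells. The level in Treg-like CD4 cells exceeded that in activated conventional CD4 cells by 2.20 on the log2 scale (1.29 to 3.22), and the next in order, the CD3-negative cells with type 2 genes (61.6 CPM, 6 UMIs), by 1.24 (0.04 to 2.74). Neighbours below them in that order did not differ beyond counting error. In the Cd4/Cd8-undetected set Foxp3 was 240 CPM in Treg-like, 24.5 in activated and 3.04 in naive-like cells, a log2 ratio of 3.29 (2.80 to 3.82) between the first 2.

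Ikzf2 was also highest in the Treg-like cells of both sets. It reached 922 CPM in Treg-like CD4 cells (398 UMIs, carried by 85 of 177 cells) against 103 in activated conventional CD4 cells (73.6 to 141) and 14.5 in naive-like CD4 cells (2.99 to 42.4). The log2 ratio of Treg-like to activated cells was 3.16 (2.68 to 3.67), and of the undetected counterparts 2.14 (1.97 to 2.31). Ikzf2 was also present outside the Treg gate, at 277 CPM in the CD3-negative type 2 gene cells, 215 in gamma-delta-like cells (180 to 254), 150 in effector CD8 cells and 76.3 in NK-like cells, and lowest among the lineage-gated subsets at 10.6 CPM in naive-like CD8 cells. In the undetected naive-like cells it was 4.06 CPM on 4 UMIs. Effector CD8 cells exceeded naive-like CD8 cells by 3.82 on the log2 scale (2.75 to 5.10). When the Treg gate was set by Il2ra alone, the Treg-like to activated log2 ratios came to 0.90 for Foxp3 and 1.58 for Ikzf2, smaller but still off 0, and with 2 UMIs required for each lineage marker that of Ikzf2 was 3.92.

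The levels moved with the number of Treg markers a cell carried. In Cd4-positive cells with 0, 1, 2, 3 and at least 4 of the 7 markers, Foxp3 was 0, 47.0, 64.1, 146 and 259 CPM, and Ikzf2 was 22.7, 127, 406, 851 and 1695 CPM. Tcf7 ran the other way, from 313 CPM with no marker to 7.40 CPM (1 UMI) with at least 4, and Lef1 from 236 to 22.2 CPM. Median depth increased along the same series, from 1532 to 2907 UMIs. In Cd4/Cd8-undetected cells, where median depth stayed between 1441.5 and 1553 UMIs over 0 to 3 markers and was 1918 at 4 or more, Foxp3 was 4.91, 37.6, 148, 245 and 371 CPM and Tcf7 312, 263, 148, 48.2 and 15.2 CPM. In both sets Foxp3 was higher and Tcf7 lower at each step, but some steps in Cd4-positive cells lay within counting error. There, Foxp3 with 1 and 2 markers was 47.0 (25.7 to 78.8) and 64.1 CPM (33.1 to 112). Tcf7 with 2 and 3 markers was 74.8 and 73.2 CPM. The part of depth in these series was not tested.

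**Figure D2:**
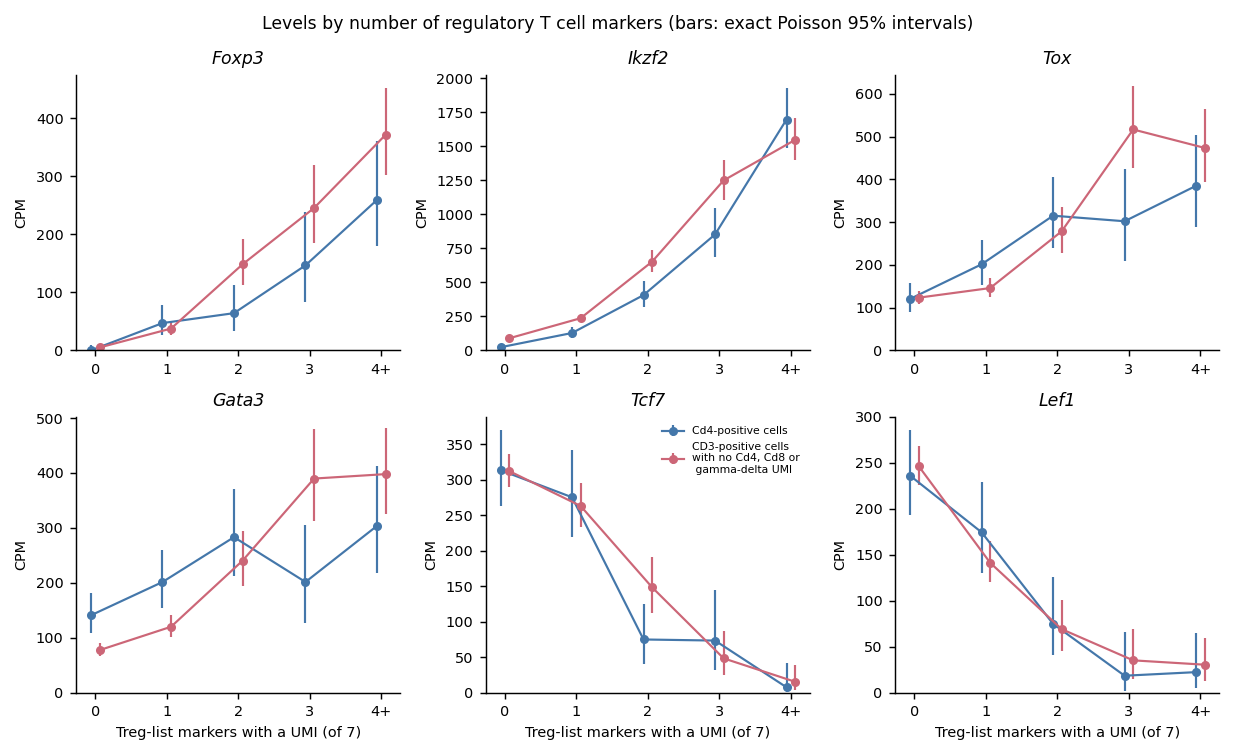
Level (CPM, vertical axis from 0) of 6 factors by the number of 7 Treg markers with a UMI (horizontal axis), in Cd4-positive cells (blue) and in CD3-positive cells with no Cd4, Cd8 or gamma-delta UMI (red), with exact Poisson 95% intervals. Foxp3 and Ikzf2 are at or near their lowest with 0 markers and highest with at least 4, while Tcf7 and Lef1 are highest with 0 markers.

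At the level of single cells the Treg factors coincided. Each cell was thinned to 1000 UMIs, and cells below that were left out. A Foxp3 UMI was then found in 10.6% of Treg-like CD4 cells (6.40 to 16.2%) and 19.7% of their undetected counterparts, against 0 of 2068 alveolar macrophages, a cell type that should lack it, which allows up to 0.145%. Without thinning, 22.6%, 29.2% and 0.325% of these cells had one, and their median depths were 2145, 1628 and 5410 UMIs. Among CD3-positive cells with a Foxp3 UMI, 72.4% (63.8 to 80.0%) also held an Ikzf2 UMI, compared with 10.9% of those without (unthinned 83.1% and 13.9%, median depths 1696.5 and 1584 UMIs). Tox was found in 40.2% against 11.4% and Gata3 in 26.8% against 9.47%. Tcf7 was found in 1.57% of Foxp3-positive cells, 2 of 127, against 22.2% of the others, and Lef1 in 4.72% against 15.4%. Foxp3-positive cells thus held Helios, Tox and Gata3 transcripts more often and TCF-1 and LEF1 transcripts less often than other CD3-positive cells, by more than counting error in each case.

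**Figure D3:**
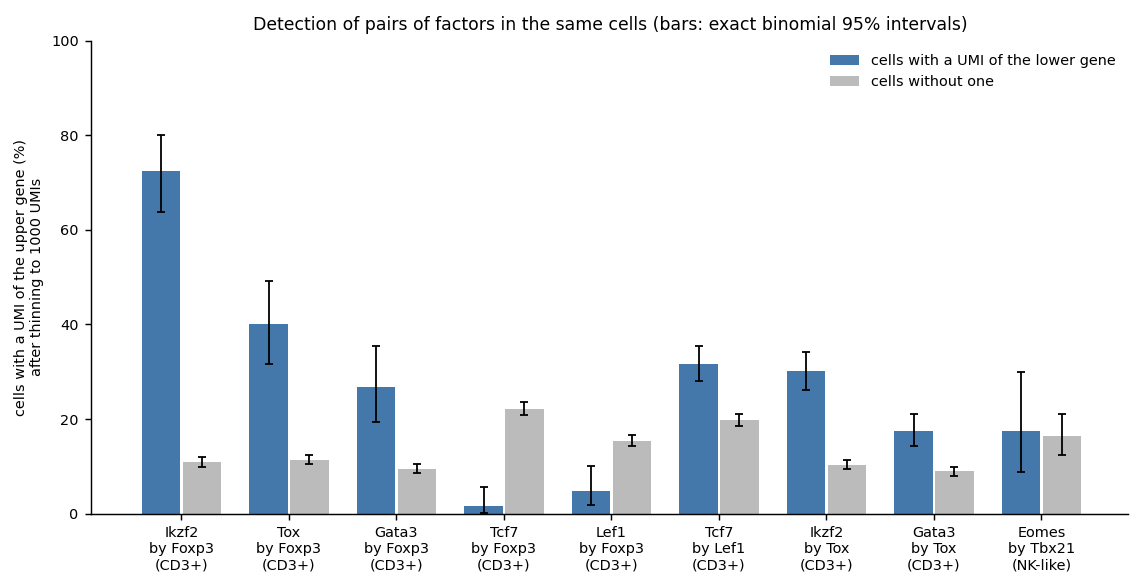
Share of cells (%, vertical axis from 0) with a UMI of the first-named gene among cells with (blue) and without (grey) a UMI of the second-named gene, after thinning every cell to 1000 UMIs, with exact binomial 95% intervals. Ikzf2 was found in 72.4% of Foxp3-positive and 10.9% of Foxp3-negative CD3-positive cells, and the Tcf7 and Lef1 bars are lower with Foxp3 than without.

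Foxp3-positive cells were higher in most genes of a list of tissue Treg genes. In the 236 CD3-positive cells with a Foxp3 UMI before thinning, Ccr8, a chemokine receptor of tumor Treg cells, was 46.7 CPM against 8.33 in the 4369 others, a log2 ratio of 2.49 (1.73 to 3.20). Ebi3, a subunit of the cytokine IL-35, differed by 2.95 (2.21 to 3.65), the inhibitory receptor Tigit by 2.76 (1.97 to 3.52), and the integrin Itgae by 1.73 (1.21 to 2.22). The amphiregulin gene Areg and the receptor gene Klrg1, which some gates used, differed by 3.07 and 3.79. Of the 12 genes in the Treg list, 10 had an interval above 0, as did 15.1% of the 12162 genes with more than 3 UMIs on either side, Foxp3 left out. Of the others, Gpr83 did not (1.04, −1.34 to 2.78), and Il10 had only 2 and 3 UMIs with and without Foxp3. CD3-positive cells with an Ikzf2 UMI outside the Cd4 gate exceeded those without by 2.56 for Ccr8 (1.79 to 3.34) and 3.04 for Tigit (2.16 to 3.98) on the log2 scale. The interval of Gpr83 held 0 in this split (−4.16 to 1.07). Among these 689 Ikzf2-positive cells were 283 Treg-like cells of the undetected set. The part of these Treg-like cells in the differences was not tested.

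Gata3 was highest in the CD3-negative cells with type 2 genes, at 606 CPM (461 to 782, 59 UMIs in 30 of 48 cells), which was 1.17 above Treg-like CD4 cells on the log2 scale (0.70 to 1.64). It then stood at 269 CPM in Treg-like and 236 CPM in activated conventional CD4 cells, 85.5 in gamma-delta-like cells, 65.2 in effector CD8, 58.1 in naive-like CD4, 43.4 in NK-like and 15.9 in naive-like CD8 cells. The step from activated conventional CD4 to gamma-delta-like cells was 1.47 (0.96 to 1.98) and that from NK-like to naive-like CD8 cells 1.44 (0.43 to 2.55), and other neighbours did not differ beyond counting error. Whether Gata3 was higher in Treg-like than in activated cells depended on the gate: with a Cd4 UMI required the log2 ratio was 0.19 (−0.22 to 0.60), and in the undetected set, at 326 against 133 CPM, it was 1.29 (1.03 to 1.55). With both sets joined it was 1.01 (0.79 to 1.23), with Il2ra alone as the Treg gate 0.57 (0.11 to 1.01), and with 2 UMIs required for each lineage marker −0.43 (−1.86 to 0.99) on 10 UMIs each. Activated conventional cells exceeded naive-like CD4 cells by 2.02 (1.15 to 3.03), and effector CD8 cells naive-like CD8 cells by 2.03 (0.99 to 3.15).

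The 688 CD3-positive cells with a Gata3 UMI carried more type 2 cytokine transcripts than the 3917 without. Il4 was 18.2 against 1.83 CPM, a log2 ratio of 3.32 (2.27 to 4.44) on 25 and 12 UMIs, the former from 13 cells. Il13 differed by 2.96 (2.00 to 3.95) and the interleukin 33 receptor gene Il1rl1 by 2.68 (2.40 to 2.96). Il5 had 7 UMIs in 3 cells against none. With none read as 3 UMIs its log2 ratio was 3.48, and the lower limit of its interval was 2.78. Ccr4 (0.65, −0.02 to 1.29) and Il17rb (−0.48, −2.01 to 0.77) had intervals that held 0. The cytokine transcripts were thus higher with Gata3, but from few cells. Among the 688 cells were 66 Treg-like CD4 cells and 175 Treg-like cells of the undetected set. Their part in these differences was not tested, and no share over all genes was computed for this split.

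Tox was detected in every subset. It was 334 CPM in Treg-like CD4 cells (281 to 393), 216 in CD3-negative type 2 gene cells, 175 in activated conventional CD4, 140 in naive-like CD4, 116 in gamma-delta-like, 77.1 in naive-like CD8, 64.3 in NK-like and 57.7 CPM in effector CD8 cells. Of these neighbours, only gamma-delta-like and naive-like CD8 cells differed beyond counting error (0.59, 0.07 to 1.12). Activated and naive-like CD4 cells differed by 0.32 (−0.33 to 1.00), effector and naive-like CD8 cells by −0.42 (−1.18 to 0.30), and Treg-like CD4 cells exceeded activated ones by 0.93 (0.50 to 1.37). In the undetected set the last ratio was 1.49 (1.24 to 1.73), on 398 against 142 CPM. With Il2ra alone as the Treg gate the activated to naive-like ratio was 1.06 (0.51 to 1.65), and with no Cd4 UMI required 0.31 (0.01 to 0.61), both with intervals off 0.

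Cells with Tox held more transcripts of the genes that chronic stimulation raises. In 890 CD3-positive cells with a Tox UMI against 3715 without, the PD-1 gene Pdcd1, which the activation gate uses, was 120 against 27.5 CPM (log2 ratio 2.12, 1.82 to 2.42), the inhibitory receptor gene Lag3 24.8 against 5.45 (2.19, 1.50 to 2.88), and Tnfrsf9, encoding 4-1BB and part of the Treg gate, 81.5 against 13.9 CPM (2.55, 2.15 to 2.95). Havcr2, encoding TIM-3, differed by 1.88 (0.60 to 3.17) on 12 UMIs each. All 8 genes of this list had an interval above 0, against 13.1% of 11907 genes in the same split, the smallest difference being 0.92 (0.68 to 1.15) for Nr4a2. Treg-like cells, the subset highest in Tox, are among the cells compared, and their part in these differences was not tested.

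Tcf7 and Lef1 marked the naive-like subsets and separated from each other in activated cells. Tcf7 was 431 CPM in naive-like CD4 and 342 in naive-like CD8 cells, 215 in activated conventional CD4, 203 in effector CD8 and 169 in gamma-delta-like cells, then 53.3 in Treg-like CD4, 44.9 in NK-like and 10.3 CPM (1 UMI) in CD3-negative type 2 gene cells. Only the steps from naive-like CD8 to activated CD4 cells (0.67, 0.30 to 1.05) and from gamma-delta-like to Treg-like cells (1.67, 1.01 to 2.39) exceeded counting error. Lef1 was 363 CPM in naive-like CD4 and 295 in naive-like CD8 cells, and from there dropped to 100.3 in effector CD8 cells, with all other subsets between 24.2 and 71.6 CPM. The step from naive-like to effector CD8 cells was the only one between neighbours that exceeded counting error.

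Naive-like CD8 cells exceeded effector CD8 cells by 0.75 for Tcf7 (0.38 to 1.13, 257 against 81 UMIs) and by 1.56 for Lef1 (1.07 to 2.08, 222 against 40 UMIs). Activated conventional CD4 cells were below naive-like CD4 cells by a log2 ratio of −1.003 for Tcf7 (−1.46 to −0.55) and −2.34 for Lef1 (−3.03 to −1.69), and the undetected set gave −1.01 and −3.08. Gamma-delta-like cells were not separable from effector CD8 cells in Tcf7 (−0.26, −0.69 to 0.17) and were lower in Lef1 (−2.05, −3.01 to −1.16). From activated to Treg-like cells, Tcf7 was lower in both sets (−2.01 with Cd4, −1.22 without it detected), while for Lef1 both intervals held 0. Thinned to 1000 UMIs, Tcf7 was found in 27.8% of naive-like and 14.9% of effector CD8 cells and in 0.667% of B or plasma cells (unthinned 46.9, 34.6 and 1.29%, median depths 1868.5, 1870 and 1366 UMIs). Lef1 was found in 26.5%, 9.77% and 0.5% of the same cells.

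By the number of 10 effector markers in Cd8-positive cells, 0, 1, 2, 3 and at least 4, Lef1 was 313, 261, 223, 97.4 and 62.4 CPM, and Tcf7 313, 372, 270, 244 and 153 CPM. Lef1 was lower at every step, while Tcf7 was highest with 1 marker and lowest with at least 4, at median depths from 1691.5 to 2116 UMIs. The intervals of neighbouring steps overlapped for both genes, except for Lef1 between 2 (170 to 289 CPM) and 3 markers (53.3 to 163 CPM). After thinning, 31.7% of Lef1-positive CD3-positive cells also had a Tcf7 UMI against 19.8% of the others. The 965 CD3-positive cells with a Lef1 UMI were higher than the 3640 without in Klf2, a regulator of lymphocyte exit from tissue (0.71, 0.60 to 0.82), and the chromatin organizer Satb1 (0.76, 0.62 to 0.90), and in the gating genes Igfbp4 (1.75) and Dapl1 (1.56). The interleukin 7 receptor gene Il7r was slightly lower with Lef1 (−0.11, −0.20 to −0.03) and slightly higher with Tcf7 (0.19, 0.12 to 0.26).

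Tbx21 and Eomes were highest in NK-like cells. Tbx21 was 154 CPM there (126 to 187, 103 UMIs), 37.6 in effector CD8 cells (21.0 to 62.0, 15 UMIs), 18.5 in Treg-like CD4 and 9.68 in gamma-delta-like cells, and at 3 UMIs or fewer in the other lineage-gated subsets, while in the undetected set it was 15.3 CPM in activated (25 UMIs) and 9.05 in Treg-like cells (8 UMIs). Eomes was 203 CPM in NK-like cells (171 to 241, 136 UMIs), 25.1 in effector CD8 (10 UMIs), 13.3 in activated conventional CD4 and 11.96 in naive-like CD8 cells, and at 2 UMIs or fewer in the other lineage-gated subsets, while activated cells of the undetected set had 6 UMIs (3.68 CPM). NK-like cells exceeded effector CD8 cells by 2.03 for Tbx21 (1.25 to 2.92) and 3.02 for Eomes (2.10 to 4.11), and no neighbours below NK-like cells differed beyond counting error for either gene. Effector cells exceeded naive-like CD8 cells in Tbx21 by 3.24 (1.42 to 5.67) on 15 against 3 UMIs, whereas for Eomes the ratio of 1.07 (−0.39 to 2.54, 10 against 9 UMIs) was not distinguishable from 0 at this depth. Of all UMIs of Eomes in filtered cells, 64.8% came from the 540 NK-like cells, and of Tbx21 42.9%.

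Detection of 1 paralog in an NK-like cell did not differ measurably with that of the other. After thinning, 16.0% of NK-like cells had a Tbx21 UMI and 16.5% an Eomes UMI, against 1.72% and 3.45% of effector CD8 cells and, for Eomes, 0 of 1800 B or plasma cells, which allows up to 0.167% (unthinned 17.0% and 20.2% of NK-like cells, median depths 1147.5 in NK-like and 1366 in B or plasma cells). Eomes was found in 17.5% (8.75 to 29.9%) of 57 Tbx21-positive and 16.3% (12.3 to 21.0%) of 300 Tbx21-negative NK-like cells. The 79 CD3-positive cells with a Tbx21 UMI held more transcripts of several cytotoxic genes than the 4526 others, with the granzyme gene Gzma at 958 against 40.8 CPM (4.56, 4.28 to 4.82, from 13 cells), perforin (Prf1) at 70.0 against 13.0 (2.43, 1.47 to 3.26) and Ifng at 199 against 26.4 CPM (2.91, 2.37 to 3.42). Fasl (0.96, −0.12 to 1.87) and Il12rb2 (2.14, −1.01 to 4.19) had intervals that held 0. No share over all genes was computed for this split. Within NK-like cells, Gzma was 0.28 higher with Tbx21 (0.19 to 0.37) and 0.25 lower with Eomes (a log2 ratio of −0.25, −0.35 to −0.16), Prf1 was not separable from 0 for either, and Ifng was lower with Tbx21 (−0.94, −1.76 to −0.21, 17 UMIs).

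Bcl6 was near the limit of detection in T and NK cells. All 6005 of them held 40 UMIs, 4.06 CPM (2.90 to 5.53), of which 10 lay in Treg-like CD4 cells (23.2 CPM, 11.1 to 42.6, in 5 cells). Activated conventional and naive-like CD4 cells had 2 UMIs each, so the planned ratio could not be given, and effector CD8 cells had none, which allows up to 7.52 CPM. The 26 CD3-positive cells with a Bcl6 UMI were higher in some genes of a follicular helper list and not in others. The cytokine gene Il21 had 7 UMIs in 3 of them against 20 UMIs in 4579 other cells (5.88, 4.40 to 7.18). Cd200 differed by 3.43 (2.68 to 4.10), Tnfsf8 by 1.87 (1.37 to 2.33) and the gating gene Pdcd1 by 3.17 (2.42 to 3.84). Icos (0.14, −0.62 to 0.80) and Sh2d1a (0.82, −0.63 to 1.95) had intervals that held 0. The follicular homing receptor gene Cxcr5 had no UMI in the 26 cells and 21 in the others. The share of all genes with an interval above 0 was not computed for this split. Treg-like cells are among the cells compared, and their part in these differences was not tested.

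Across the cell classes of the tumors, 8 members were highest in T or NK-like cells and Bcl6 was not. T or NK-like cells held 79.3% of all Foxp3 UMIs (413 of 521), 73.3% of Ikzf2, 85.2% of Tcf7, 88.6% of Lef1, 82.6% each of Gata3 and Tox, 81.2% of Tbx21 and 93.8% of Eomes, but 4.69% of Bcl6. Their level over all other cells was higher by 4.07 on the log2 scale for Foxp3 (41.9 against 2.49 CPM, 3.77 to 4.39), 6.06 for Eomes (5.25 to 6.996) and 5.09 for Lef1 (4.88 to 5.31), and lower for Bcl6 (4.06 against 18.7 CPM, −2.20, −2.70 to −1.75). Clusters were formed from genes of these cells, so the classes are a background and their contrasts are descriptions.

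Bcl6 was highest in neutrophils, at 58.3 CPM (48.4 to 69.7, 121 UMIs), followed by monocytes and dendritic cells at 39.8 CPM (33.8 to 46.5, 159 UMIs), ciliated or club cells (32.2 CPM on 3 UMIs), stromal cells at 27.0, epithelial cells at 23.2 and interstitial macrophages at 19.5 CPM. The class of B or plasma cells was at 12.6 CPM (9.29 to 16.8). The factor is known for its part in germinal centre B cells, which this mixed class does not single out. Neutrophils exceeded T or NK-like cells by 3.84 (3.32 to 4.40) and monocytes and dendritic cells did so by 3.29 (2.78 to 3.83). In the neutrophils without a CD3 chain UMI the level was 65.6 CPM.

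Part of the signal of the other members outside T cells did travel with T cell transcripts. Of 1800 cells in the neutrophil cluster, 123 (6.83%) had a CD3 chain UMI, and without them Ikzf2 went from 41.9 to 12.2 CPM, Tcf7 from 30.8 to 3.48 and Tox from 19.8 to 4.65 CPM. In B or plasma cells Ikzf2 went from 11.3 to 0.288 CPM. Other levels held without CD3-positive cells: Ikzf2 in mast cells or basophils was 124 CPM in all cells and 125 in those without CD3 (33 UMIs), Gata3 in endothelial cells 18.6 and 18.0 CPM, and Tcf7 in stromal cells 31.2 and 30.2 CPM. Endothelial Tcf7 and Lef1 were 21.1 and 15.8 CPM in all cells and 15.6 and 12.4 CPM without CD3. Epithelial cells, which include the tumor cells, were low in all 8 members other than Bcl6, with no more than 6.66 CPM (Tox).

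**Figure D4:**
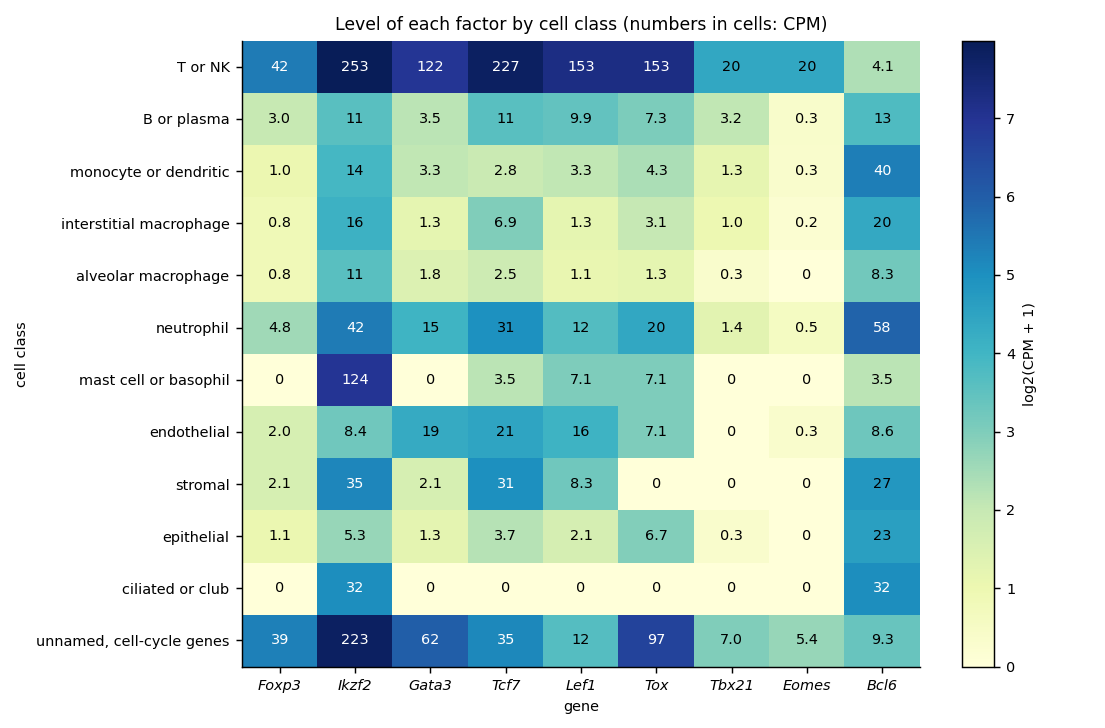
Level of each factor (columns) in 12 cell classes (rows), printed as CPM and colored by log2(CPM + 1), to be read down a column. T or NK-like cells have the highest value for all factors but Bcl6, which is highest in neutrophils (58.3 CPM) and in monocytes or dendritic cells (39.8 CPM).

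A cluster of 222 cells led by cell-cycle genes, left unnamed, included 114 CD3-positive cells. In these Foxp3 was 82.9 CPM (61.7 to 109) and Ikzf2 452 CPM, above T or NK-like cells as a whole by 0.98 (0.53 to 1.41) and 0.84 (0.65 to 1.01) and below Treg-like CD4 cells by a log2 ratio of −0.82 and −1.03. Lef1 (24.4 CPM) and Tcf7 (73.2 CPM) were lower than in T or NK-like cells, by a log2 ratio of −2.65 (−3.49 to −1.93) and −1.63 (−2.09 to −1.21). The cells of that cluster without CD3 had no UMI of Foxp3, Gata3, Tcf7 or Lef1. The cycling CD3-positive cells thus had more of the Treg factors and less of the naive factors than T and NK cells at large, at a median depth of 5123 against 1508 UMIs. The 2 sides were not selected alike, since only 4605 of the 6005 T or NK-like cells had a CD3 chain UMI. The part of this selection in the differences was not tested.

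A size rule was applied to all measured genes, a level of at least 50 CPM in either subset and a difference of at least 2-fold after adding 10 CPM to both. The rule is not counted over the members, because several passed the level filter only through the subset where they were high and so had to differ. Between Treg-like and activated conventional CD4 cells, 6 members passed the filter, Foxp3 through Treg-like and Lef1 through activated cells only, and in the undetected set 5 passed, Foxp3 through Treg-like cells only. Between activated and naive-like CD4 cells 5 passed, Ikzf2 through activated cells only, and between effector and naive-like CD8 cells 5 passed, Ikzf2 and Gata3 through effector cells only. Between NK-like and effector CD8 cells 7 passed, Tbx21 and Eomes through NK-like cells only and Tcf7, Lef1 and Gata3 through effector cells only. The members' values in these comparisons are the levels and ratios given above.

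**Figure D5:**
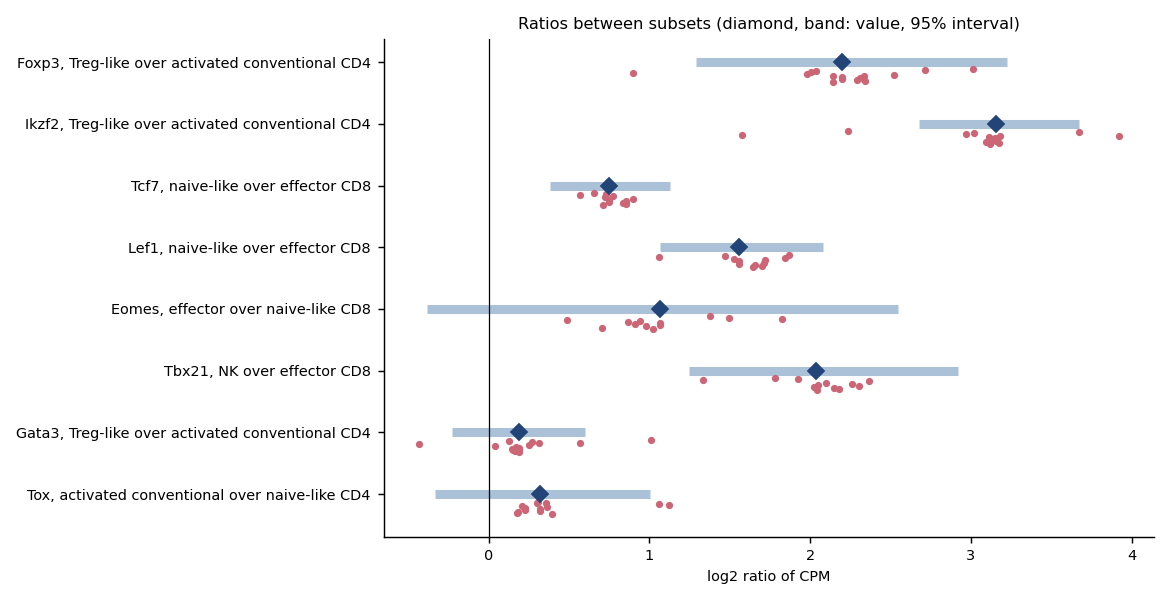
Log2 ratio of CPM (horizontal axis) between 2 subsets for 8 factors, with the reported value (diamond), its exact 95% interval (band) and the values under other gates, filters and clusterings (dots). The Foxp3, Ikzf2, Tcf7, Lef1 and Tbx21 dots all lie above 0, and those of Gata3 lie on both sides of it.

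Other T cell factors, a list of 25 once gating genes were left out, were counted by the rule, and these counts carry the same limit of the level filter. In Treg-like against activated conventional CD4 cells, Hopx, a homeodomain-only protein gene, was higher among 16 tested (178 against 53.1 CPM, 1.75), and Bcl11b, a factor of T cell identity, and Klf2 were lower (99.6 against 233 and 169 against 377 CPM), where 3.23% of 2788 genes were higher and 1.40% lower. In the undetected set Hopx (248 against 52.7 CPM) and Batf, a factor of effector Treg cells (204 against 69.9 CPM), were higher and Satb1 lower among 15, against 3.36% and 1.52% of 2560 genes. From naive-like to activated CD4 cells, 8 of 15 were higher, among them Rora (310 against 19.4 CPM) and the activation-induced genes Nr4a1, Nr4a2 and Nr4a3, and Satb1 (141 against 436 CPM) and Bach2, a keeper of the naive state, were lower, against 19.5% and 3.42% of 2605 genes. In effector against naive-like CD8 cells 6 of 14 were higher, including Rora and Zeb2, a factor of terminal effectors (23 UMIs against none), and Bach2 was lower (37.6 against 86.4 CPM), against 8.76% and 1.39% of 2374 genes. In NK-like against effector CD8 cells 4 of 16 were higher, with Zeb2 at 247 against 57.7 CPM, and 3 lower, with Bcl11b at 13.5 against 133 CPM, against 10.7% and 4.28% of 2895 genes. By the same rule all 8 tested cytotoxic genes were higher in NK-like than in effector CD8 cells, and all 5 tested in effector over naive-like CD8 cells. These counts are limited by the filter too, since a gene that passes it through 1 subset only is higher there by construction.

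Genes whose levels followed a member most closely over the 22 subsets and classes were ranked by Pearson correlation of log2(CPM + 10) among 7355 genes, gating genes and members left out. These groups share 1 library pool and differ in depth, so the correlations are descriptions. Nearest to Foxp3 were Tff1 (r = 0.946), a secreted trefoil peptide gene, Ccr8 (0.938) and Dusp4 (0.868), and nearest to Ikzf2 were Rora (0.883), Ttc39c (0.856) and Rbl2 (0.838). Tcf7 was followed by Fam78a (0.913), Cd247 (0.910) and Dgka (0.909), and Lef1 by Fam78a (0.937), Scml4 (0.935) and Dnah8 (0.917). For Tbx21 they were Klrc2 (0.934), Xcl1 (0.931) and Ifng (0.921), and for Eomes Prf1 (0.939), Klrc2 (0.927) and Samd3 (0.926). Gata3 was nearest to Xlr4a (0.940), Aebp2 (0.935) and Tnfsf11 (0.912), Tox to Xlr4a (0.946), Camk4 (0.910) and Ubash3a (0.908), and Bcl6 to Thbs1 (0.806), Iscu (0.794) and Hp (0.794). Among the members themselves, r over the 22 groups and over the 11 T and NK subsets was 0.90 and 0.69 for Tcf7 with Lef1, 0.91 and 0.90 for Tbx21 with Eomes, 0.94 and 0.81 for Gata3 with Tox, and 0.83 in both for Foxp3 with Ikzf2. Foxp3 was about as close to Gata3 (0.81 and 0.83), and its values with Tox were 0.74 and 0.86. Over the 11 subsets Foxp3 was therefore not closest to Ikzf2.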

How the data were processed

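Per the labels, viable (DAPI-negative) cells of tumors from 2 Restored and 2 Non-Restored mice were profiled with the 10x Single Cell 3′ v3 kit. The authors mapped reads with Cell Ranger 3.0.2 (from the file header) to mm10 with GFP and TdTomato added, and deposited 1 pooled matrix of raw UMI counts per gene and cell, and no file used here maps its cells to mice. The study's methods leave out tdTomato-positive non-epithelial cells, a step tried here as an alternative. From the deposited counts, cells with at least 200 genes and below the 98th percentile of genes (2713) and mitochondrial share (13.4%) were kept. They were clustered in Seurat 5.3.0 (R 4.3.3) on 2000 variable genes without the 9 members, Stk11, TdTomato and GFP (12 genes held out), with 25 dimensions at resolution 0.1, and named from marker lists. Scrublet in scanpy 1.11.5 called 181 of 20299 cells doublets (0.892%), which were kept in the values given and left out in an alternative. UMIs were summed per subset, and intervals for levels (Poisson), shares (binomial) and ratios (conditional binomial) were exact at 95% (scipy 1.17.1). A count of 0 was read as up to 3 UMIs, and no ratio was given where both groups had 3 or fewer. The interval code was tested on simulated counts for the Treg-like against activated CD4 comparison. Genes named are the 9 members, the 3 nearest genes to each by correlation, and members of fixed gene lists. A naive-like marker and an allele that all 4 mice carried are not reported here. Members and lists were chosen with earlier results of these data known. No paired or between-mouse test was made.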

Additional observations from a re-analysis of the deposited data

How the results depend on the processing

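The ratios planned between subsets were recomputed under other settings of the cell filters, clustering, doublet removal and gates, 15 for Foxp3, Ikzf2 and Gata3, 14 for Tox and 12 for Tcf7, Lef1, Eomes and Tbx21, which the Treg and Cd4 gate settings do not touch. Of these settings the 3-marker Treg gate and the gate without a Cd4 UMI were chosen after seeing the data. For the 8 ratios with a reported value, 97 of 107 values lay inside its interval, 10 lay outside it, and none of the called differences reversed. The intervals of Foxp3, Ikzf2, Tcf7, Lef1 and Tbx21 stayed off 0 in each setting that gave one, that of Eomes in none of 11, and those of Gata3 and Tox left 0 in 2 of 14 and 2 of 13. With 2 UMIs required for each lineage marker, the log2 ratio was 3.92 for Ikzf2, 1.06 for Lef1, −0.43 for Gata3 and 1.12 for Tox, on 13 to 34 cells in the CD4 subsets. With Il2ra alone as the Treg gate it was 0.90 for Foxp3, 1.58 for Ikzf2 and 1.06 for Tox. With 3 Treg markers required it was 3.67 for Ikzf2, and without a Cd4 UMI 2.24 for Ikzf2 and 1.01 for Gata3. The ratio of Bcl6 had too few UMIs for a reported value, and in the 3 settings that gave one it was 0.15 with the gates applied to all filtered cells, 0.24 with Il2ra alone and 0.25 without a Cd4 UMI, on 2 or 3 UMIs in naive-like cells. The causes were not tested. Leaving out cells with a B, myeloid or epithelial marker UMI (287) or cells with a TdTomato UMI (1176) kept every reported ratio inside its interval. Leaving out Scrublet doublets, or clustering at resolution 0.3, left the cell counts of the gated CD4 and CD8 subsets unchanged. NK-like cells went from 540 to 537 and 541. These settings could hardly move a ratio, so their values, which are among the 97, say little about its stability. Of 24 shares recomputed at other depths, 16 left the interval, so shares hold for 1000 UMIs only. Depth limits Bcl6, Eomes in CD8 cells and Tbx21 in CD8 cells, which rest on 15 UMIs or fewer. No paired analysis was possible because no file used here assigns cells to mice, and replicates could not be left out in turn for the same reason.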

Other observations

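The Cd4/Cd8-undetected Treg-like cells outnumbered those with a Cd4 UMI, 469 against 177, and held 40.7% of all Foxp3 UMIs in filtered cells, against 12.1% in the latter. Their Foxp3 level was higher by 0.72 on the log2 scale (0.30 to 1.15) and their Ikzf2 level by 0.22 (0.05 to 0.39), at a lower median depth (1628 against 2145 UMIs). Tcf7, Lef1, Gata3 and Tox were not separable between both sets. Bcl6 went in the other direction, with 5 UMIs against 10 (−2.03, −3.93 to −0.35). These came from 5 cells on each side, and the interval treats the UMIs of 1 cell as independent.

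Naive-like CD8 cells had less Gata3 than naive-like CD4 cells, 15.9 against 58.1 CPM on 12 UMIs each (a log2 ratio of −1.86, −3.15 to −0.58), and less Tox, 77.1 against 140 CPM (−0.86, −1.53 to −0.17). The naive factors Tcf7 (−0.33, −0.69 to 0.03) and Lef1 (−0.30, −0.68 to 0.10) were not separable between them. Gata3 and Tox were thus lower in the CD8 than in the CD4 cells gated as naive-like. The gates are not alike, since only the CD4 gate leaves out cells with a Treg marker, and the activation and effector lists differ. The part of the gates in these differences was not tested.

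Gamma-delta-like cells, of which 42 of 352 also had a Trac UMI, held Ikzf2 above activated conventional CD4 cells by 1.05 (0.53 to 1.61), with Gata3 below them by a log2 ratio of −1.47 (−1.98 to −0.96) and Foxp3 at 1 UMI. Against NK-like cells they were lower in Tbx21 (9.68 against 154 CPM) and Eomes (1.61 against 203 CPM) and higher in Tcf7 (169 against 44.9 CPM).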
